A study of Homo sapiens with 84 samples.

Results

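YAP1 and WWTR1 (the gene of TAZ), TEAD1, TEAD4, and 5 genes that YAP/TAZ and TEAD proteins are known to control (CCN1, CCN2, ANKRD1, AMOTL2, and LATS2) were followed through EGF and EpEX treatment of 2 carcinoma cell lines. The members were taken by symbol, and each of the 9 matched exactly 1 of the 58395 genes counted in every library, with CCN1 listed as CYR61 and CCN2 as CTGF in the older annotation. Members and the further gene lists were chosen with earlier results of these data known. Counts of called genes beside the share of all genes are therefore descriptions and not tests of the lists. YAP1 and TAZ are transcriptional co-activators that carry no DNA-binding domain of their own and reach promoters and enhancers through TEAD proteins. The Hippo kinases LATS1 and LATS2 phosphorylate both and thereby keep them in the cytoplasm, and cell density, adhesion, tension on the actin cytoskeleton, and growth factor signals act on this step. CCN1 and CCN2 encode secreted matricellular proteins, ANKRD1 encodes an ankyrin-repeat protein, and AMOTL2 and LATS2 encode inhibitors of YAP/TAZ that are themselves induced by it. Because much of the pathway is set by phosphorylation and localization, the mRNA of YAP1 or WWTR1 is not a readout of the activity of the proteins.

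Kyse30 is a line of esophageal squamous cell carcinoma, and FaDu is a line of pharyngeal squamous cell carcinoma. All cells, untreated ones included, were kept without serum, and were collected untreated at 0, 6, or 72 h or after 6 or 72 h with EGFlow (1.8 nM EGF), EGFhigh (9 nM EGF), EpEX (the extracellular domain of EpCAM fused to an immunoglobulin Fc region), EGFhigh + EpEX, or Fc alone, the control for EpEX. RNA was read by 3′ RNA-seq (QuantSeq 3′ FWD), in which a transcript is read at its 3′ end. The results concern all 43 Kyse30 libraries, with 3 or 4 per condition, and the 20 FaDu libraries labelled replicate 3 or 4, with 1 or 2 per condition.

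The promoters are shown for the motif CATTCC, the sequence that TEAD proteins recognize, which was also counted where it lies on the opposite strand and then reads GGAATG. RefSeq promoters (GRCh38.p14) were given for 6 of the 9 members, with 8 start sites, and 250 bases before each start were searched on both strands. The motif was found before 4 of the 8 starts, and in 11.9% of all 35116 promoters of the same length. The promoter of CCN2 held 3 matches, which lie 169 to 164, 104 to 99, and 95 to 90 bases before the start. The sequence runs from 250 to 2 bases before the start on the minus strand of chr6:131951374-131951622, and capitals mark the matches.
CCN2: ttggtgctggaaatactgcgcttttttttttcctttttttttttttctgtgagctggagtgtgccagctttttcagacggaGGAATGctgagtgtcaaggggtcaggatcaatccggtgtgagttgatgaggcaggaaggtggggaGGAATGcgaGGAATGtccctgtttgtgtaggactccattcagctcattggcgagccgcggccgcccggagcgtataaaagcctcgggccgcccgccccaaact
The promoter of ANKRD1 held 2 matches, 220 to 215 and 128 to 123 bases before the start, here with their flanks from the minus strand of chr10:90921290-90921319 and chr10:90921198-90921227.
ANKRD1 far: atcaccaccaaaGGAATGgccctctcacat
ANKRD1 near: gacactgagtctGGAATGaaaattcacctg
YAP1 itself and the second start of AMOTL2 each held 1 match, at chr11:102110273-102110302 on the plus strand and chr3:134374499-134374528 on the minus strand.
YAP1: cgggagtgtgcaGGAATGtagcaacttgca
AMOTL2: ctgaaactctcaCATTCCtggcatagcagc
The AP-1 motif TGANTCA, which binds the FOS and JUN proteins that growth factors induce, was found before 1 of the 8 starts, that of ANKRD1, 195 to 189 bases upstream, and in 6.57% of all promoters. Its site lies on the minus strand of chr10:90921264-90921293.
ANKRD1 AP-1: acatttcttccTGATTCAcatattcagcag
The CArG box of serum response factor, in 1.16% of all promoters, was found before none of the 8 starts. Neither start of WWTR1, the first start of AMOTL2, nor LATS2 held any of the 3 motifs in these windows. The printed stretches ANKRD1 near, ANKRD1 AP-1, and AMOTL2 lie before their RefSeq starts but overlap exons annotated on the same strand. A match describes the letters and is not a bound site.

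Kyse30 libraries held between 1944948 and 11759799 counts on genes, with a median of 6304338. FaDu replicates 3 and 4 held between 6217938 and 12442349, with a median of 9259762. FaDu replicates 1 and 2 held 1967037 to 21516063 counts and entered only where all 4 replicates are named. With them, 0 genes were called at 6 h with EGFlow, EGFhigh, or EpEX, where replicates 3 and 4 alone gave 553, 491, and 560 calls. Squamous epithelial markers reached a mean of at least 1 CPM (TMM-scaled counts relative to library size) in both lines, except PKP1 in Kyse30. Their levels differed between the lines. In untreated Kyse30 cells at 6 h, KRT17, KRT5, and KRT14 had means of 4.65, 3.74, and 1.10 CPM. In untreated FaDu cells at 6 h, they had means of 749, 204.5, and 9.59 CPM. CDH1 went the other way, with 149 CPM in Kyse30 and 40.7 CPM in FaDu cells. Of 6 fibroblast markers, 4 were under 1 CPM in each line, and of 6 endothelial and blood cell markers, HBB was at 0 in all libraries of both lines and PECAM1 in all of Kyse30. The spans of YAP1, WWTR1, TEAD1, CCN2, and LATS2, introns included, overlap annotated antisense genes. Overlap of exons or 3′ ends was not examined, and the strand setting of the counting is not given in the sources used here. Whether reads of antisense partners entered the counts of these genes therefore cannot be told. The labels do not say whether replicates were separate cultures, so p-values measure the spread between these libraries. In these bulk samples, fewer cells that express a gene and less of its RNA per cell cannot be told apart.

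Of the co-activators, WWTR1 rose in Kyse30 cells within 6 h of each EGF treatment, while YAP1 passed the test in no comparison. In untreated cells at 6 h, WWTR1 stood at 80.5, 123, and 85.0 CPM. Under EGFlow the 4 libraries held 181, 164, 173, and 179 CPM, and under EGFhigh 188, 222, 187, and 156 CPM. No treated library overlapped the untreated ones, and the spread under EGFlow was narrow. The log2FC was 0.86 ± 0.22 (SE) with EGFlow (adjusted p = 0.0297, edgeR) and 0.97 ± 0.22 with EGFhigh (adjusted p = 0.00882). WWTR1 was the only member called in either comparison, that is 1 of 9, against 1.5% of all 15350 genes tested under EGFlow and 2.55% under EGFhigh. EGFhigh and EGFlow differed by a log2FC of 0.11 for WWTR1, with a 95% interval of -0.27 to 0.50.

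With Fc alone, WWTR1 held 115, 107, and 72.4 CPM at 6 h. It held 191, 181, and 176 CPM with EpEX and 238, 231, 118, and 156 CPM with EGFhigh + EpEX. All libraries with EpEX lay above all libraries with Fc, also where EGF was added. EGFhigh + EpEX raised WWTR1 by a log2FC of 0.92 ± 0.22 (adjusted p = 0.00837), again as the only 1 of 9 members called, against 4.52% of all genes. The log2FC with EpEX alone was 0.90 ± 0.23 and did not pass the test (adjusted p = 0.101), so 0 of 9 members were called with edgeR and 1 with DESeq2, against 0.0261% of all genes with edgeR, and 3 members had an unadjusted p under 0.05, against 9.45% of all genes. The adjusted p of WWTR1 was 0.0234 with DESeq2 and 0.0425 with the replicate number as a block. Over all 15 Kyse30 libraries with EGF or EpEX at 6 h, WWTR1 ranged from 118 to 238 CPM, and over the 6 libraries with no agent or Fc from 72.4 to 123 CPM. With EGFhigh + EpEX, 6 of the 9 members had an unadjusted p under 0.05, against 19.2% of all genes. The median log2FC of the 9 members was -0.59 there, and that of all genes tested was -0.01.

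These calls on WWTR1 depended in part on single controls. Without untreated replicate 1 or 4 at 6 h, the adjusted p rose to 0.181 and 0.194 for EGFlow (log2FC 0.74 and 0.78) and to 0.0791 and 0.0829 for EGFhigh (log2FC 0.86 and 0.89). Without EGFlow replicate 1, 3, or 4 it was 0.0811, 0.0624, and 0.0691, at a log2FC of 0.85, 0.86, and 0.84. Without Fc replicate 4 the adjusted p for EGFhigh + EpEX was 0.0776 (log2FC 0.79), and with the compared groups alone in the fit it was 0.101 (log2FC 0.92).

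At 72 h, WWTR1 lay near or below its range at 0 h, which was 78.7 to 121 CPM. It held 80.4, 69.8, and 60.9 CPM in untreated cells, 65.8 ± 6.62 CPM (SD, n = 4) with EGFlow, and 60.1 ± 2.85 CPM (n = 3) with EGFhigh + EpEX. The 3 libraries with EGFhigh were higher, with 99.4, 109, and 93.3 CPM, and overlapped neither of these groups. The difference from untreated cells did not pass the test (log2FC 0.51 ± 0.23, adjusted p = 0.19), nor did that from EGFlow (0.61 ± 0.21, adjusted p = 0.101) or the lower level with EGFhigh + EpEX (log2FC -0.75 ± 0.23, adjusted p = 0.056). The last was called by DESeq2 (adjusted p = 0.0236), with a mean of at least 5 CPM as the filter (adjusted p = 0.0368), and with the replicate block (adjusted p = 0.0119). The difference between EGFhigh and EGFlow passed with the replicate block (adjusted p = 0.0347).

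YAP1 varied little between conditions. Its 13 Kyse30 condition means ran from 29 CPM with EGFlow at 6 h to 43.9 CPM with Fc at 72 h, and the ranges of all 12 neighbours in this order overlapped. For EGFhigh against untreated cells, its log2FC was 0.08 at 6 h with a 95% interval of -0.46 to 0.62, and 0.24 at 72 h with an interval of -0.33 to 0.81.

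**Figure D1:**
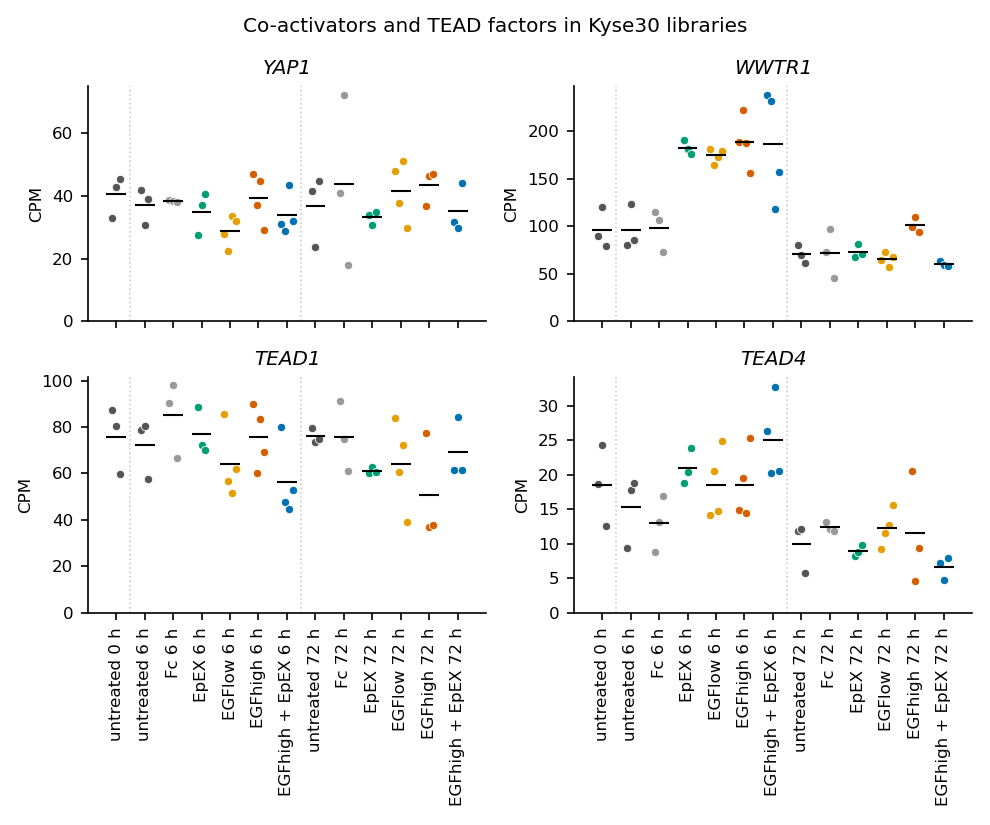
CPM of YAP1, WWTR1, TEAD1, and TEAD4 in each Kyse30 library (points, colored by treatment) with the condition mean (bars), over 13 conditions with dotted lines between 0, 6, and 72 h. WWTR1 lies at 118 to 238 CPM in the 15 libraries with EGF or EpEX at 6 h and at 72.4 to 123 CPM in the 6 libraries with no agent or Fc.

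TEAD1 and TEAD4, the DNA-binding partners, passed the test in no Kyse30 comparison. TEAD1 had means between 50.8 CPM (EGFhigh at 72 h) and 85.0 CPM (Fc at 6 h), and all neighbours in the order overlapped. With EGFhigh at 72 h it held 77.3, 37.1, and 38.0 CPM, against 79.7, 73.7, and 74.8 CPM in untreated cells. Replicate 1 of the treated libraries thus lay among the controls and the other two below them. The log2FC was -0.58 ± 0.26 (adjusted p = 0.206), and without this replicate it was -1.01 with an adjusted p of 0.0265.

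The highest and the lowest mean of TEAD4 came from the same treatment. TEAD4 held 26.4, 20.3, 32.7, and 20.6 CPM with EGFhigh + EpEX at 6 h, above all 3 libraries with Fc (8.84, 13.2, and 17.0 CPM), with a log2FC of 0.94 ± 0.36 that did not pass the test (adjusted p = 0.12). At 72 h with EGFhigh + EpEX the mean was 6.61 ± 1.68 CPM (n = 3). The mean was 11.5 ± 8.15 CPM with EGFhigh at 72 h, where replicate 1 held 20.5 CPM and the others 4.64 and 9.42 CPM.

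CCN1, CCN2, and ANKRD1 had their lowest mean of all Kyse30 conditions with EGFhigh at 72 h. The lowest mean of AMOTL2, 143 CPM, came with EGFlow at 6 h, and that of LATS2, 21.9 CPM, with EGFhigh + EpEX at 6 h. CCN2 stood at 530, 334, and 479 CPM in untreated cells at 72 h and at 16.3, 42.3, and 68.1 CPM with EGFhigh. ANKRD1 stood at 22.0, 69.3, and 60.3 CPM untreated and at 2.33, 0.178, and 1.57 CPM with EGFhigh, which correspond to 20, 1, and 11 counts. CCN1 stood at 726, 271, and 792 CPM untreated and at 17.0, 190, and 156 CPM with EGFhigh. For none of these 3 genes did a treated library reach the lowest control.

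CCN2 fell by 3.41 ± 0.60 on the log2 scale (adjusted p = 0.000215, edgeR), ANKRD1 fell by 5.11 ± 0.89 (adjusted p = 0.000177), and CCN1 fell by 2.31 ± 0.71 (adjusted p = 0.0407). These 3 of 9 members were called and all 3 were lower, in a comparison in which 6.2% of all genes were called and 3.16% were called lower. The calls on CCN2 and ANKRD1 held under each of the 6 alternative settings and in each of the 6 fits without 1 library, with a log2FC between -3.94 and -3.01 and between -5.72 and -4.36. CCN1 was less firm. Its adjusted p was 0.187 without EGFhigh replicate 1 (log2FC -1.78), 0.0728 without EGFhigh replicate 4, 0.108 and 0.132 without untreated replicate 1 and 3, 0.0943 with the compared groups alone in the fit, and 0.0698 with the replicate block.

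The feedback genes were lower as well but did not pass the test. AMOTL2 held 350, 234, and 433 CPM in untreated cells at 72 h and 155, 202, and 118 CPM with EGFhigh, a log2FC of -1.10 ± 0.38 (adjusted p = 0.0726, and 0.029 with the replicate block). LATS2 held 46.0, 35.9, and 32.1 CPM untreated and 16.7, 29.96, and 22.3 CPM with EGFhigh, a log2FC of -0.73 ± 0.42 (adjusted p = 0.345). The groups did not overlap for either gene. In all, 6 of the 9 members had groups that did not overlap in this comparison, against 22.9% of all genes, namely the 5 targets, all lower, and WWTR1, which was higher. The median log2FC of the 9 members was -0.73, and that of all genes tested was -0.03. Of the 6 endothelial and blood cell markers, CD68 rose in the same comparison, from a mean of 0.409 to 8.26 CPM (adjusted p = 0.0462), CDH5 was tested and not called, and PECAM1, PTPRC, and HBB were at 0 in both groups. Of the 6 fibroblast markers, COL1A1 and COL1A2 were tested and not called. The part of these markers in the result was not tested.

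**Figure D2:**
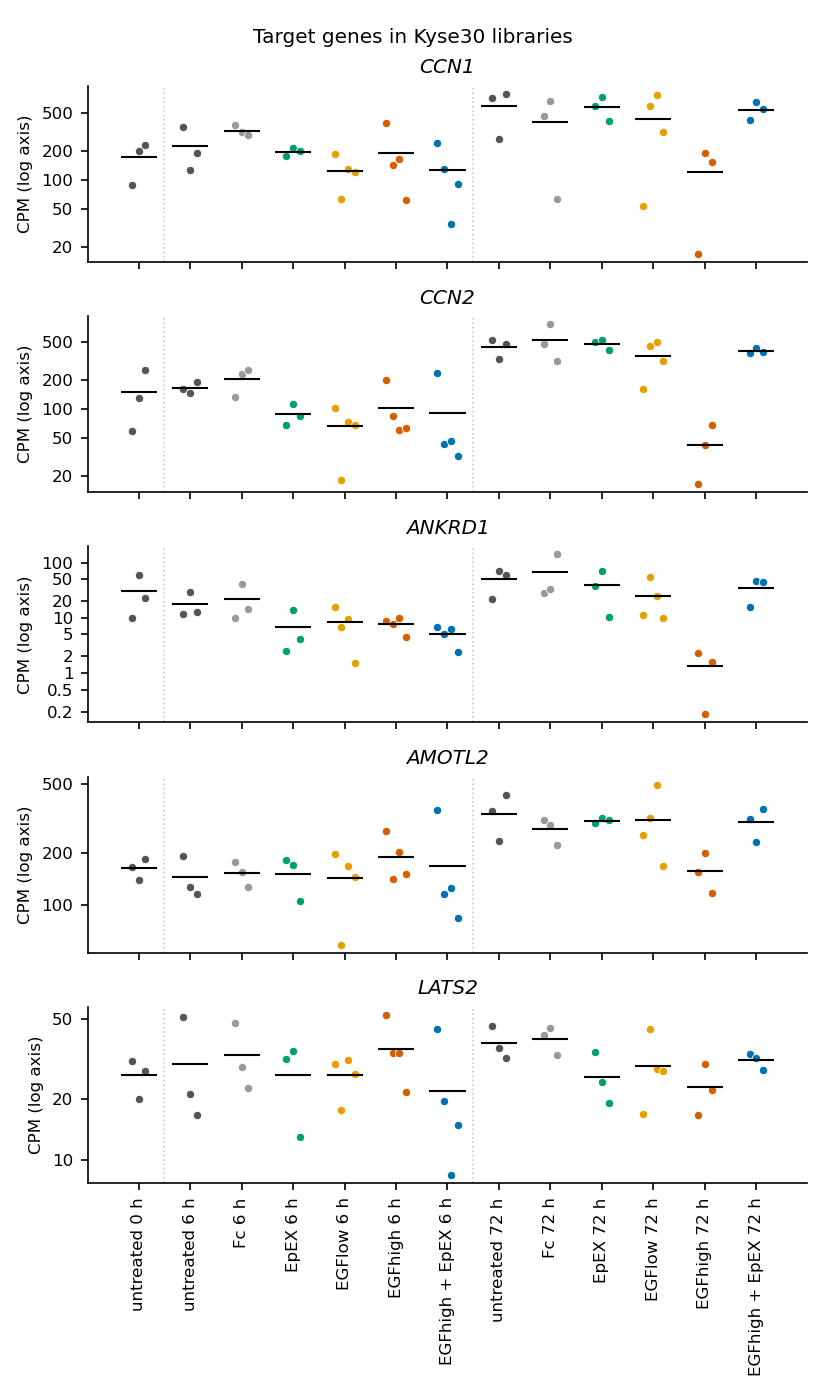
CPM of the 5 target genes in each Kyse30 library (points, colored by treatment, log axis) with the condition mean (bars), over 13 conditions with dotted lines between 0, 6, and 72 h. CCN2 lies at 16.3 to 68.1 CPM with EGFhigh at 72 h and at 161 to 769 CPM in the other 16 libraries of 72 h, and ANKRD1 at 0.178 to 2.33 and 10.0 to 141 CPM.

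With the lower EGF dose, no target passed the test at 72 h, although the means of all 5 lay below those of untreated cells. With EGFlow, CCN2 held 161, 457, 500, and 317 CPM and ANKRD1 11.1, 54.7, 24.8, and 10.0 CPM. Against untreated cells the log2FC was -0.32 for CCN2 (95% interval -1.32 to 0.68) and -0.997 for ANKRD1 (-2.28 to 0.29), and 0 of 9 members were called with edgeR and with DESeq2, against 0% of all genes with edgeR, with 0 members at an unadjusted p under 0.05. The doses themselves differed. EGFhigh lay below EGFlow by a log2FC of -3.09 ± 0.58 for CCN2 (adjusted p = 0.000672) and -4.11 ± 0.85 for ANKRD1 (adjusted p = 0.00211), without overlap, and these 2 of 9 members were called, against 3.73% of all genes. For CCN1 the log2FC was -1.85 ± 0.67 (adjusted p = 0.123). In EGFlow replicate 1, CCN1 held 54.0 CPM against 321 to 771 CPM in the other 3, and without that library the adjusted p was 0.0413 (log2FC -2.21). AMOTL2 did not pass (log2FC -0.98 ± 0.36, adjusted p = 0.125), except with the replicate block (adjusted p = 0.0288).

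With EpEX added to EGFhigh, CCN2 and ANKRD1 were higher at 72 h than with EGFhigh alone, and the other 3 targets did not pass the test. CCN2 held 387, 437, and 392 CPM with EGFhigh + EpEX, ANKRD1 15.7, 46.8, and 43.9 CPM, and CCN1 426, 650, and 547 CPM. For these 3 genes, each library lay above each library with EGFhigh alone. The log2FC of EGFhigh + EpEX against EGFhigh was 3.26 ± 0.60 for CCN2 (adjusted p = 0.00065) and 4.60 ± 0.88 for ANKRD1 (adjusted p = 0.00109), so 2 of 9 members were called, against 3.58% of all genes. Both calls held in all alternatives and in each fit without 1 library. CCN1 had a log2FC of 2.17 ± 0.71 that did not pass (adjusted p = 0.0775), and AMOTL2, at 317, 232, and 361 CPM, one of 0.94 ± 0.38 (adjusted p = 0.174). LATS2 held 33.5, 32.2, and 28.0 CPM, which overlapped the libraries with EGFhigh (log2FC 0.45 ± 0.42, adjusted p = 0.66). These comparisons share the EGFhigh libraries, and leaving out any of these libraries lost neither call.

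Against Fc at 72 h, EGFhigh + EpEX gave a log2FC of -0.36 for CCN2 (95% interval -1.44 to 0.71), -0.92 for ANKRD1 (-2.31 to 0.46), and 0.42 for CCN1 (-0.90 to 1.75). EpEX alone gave -0.14 for CCN2 (-1.21 to 0.93) and -0.75 for ANKRD1 (-2.13 to 0.63). In both comparisons, 0 of 9 members and 0% of all genes were called with edgeR, and 0 members were called with DESeq2. At an unadjusted p under 0.05, there was 1 member with EGFhigh + EpEX, TEAD4 (log2FC -0.90), against 3.92% of all genes, and 0 with EpEX. The Fc libraries were far apart, since replicate 3 held 63.2 CPM of CCN1 against 471 and 675 CPM in the others, and 141 CPM of ANKRD1 against 28.8 and 33.5 CPM.

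**Figure D3:**
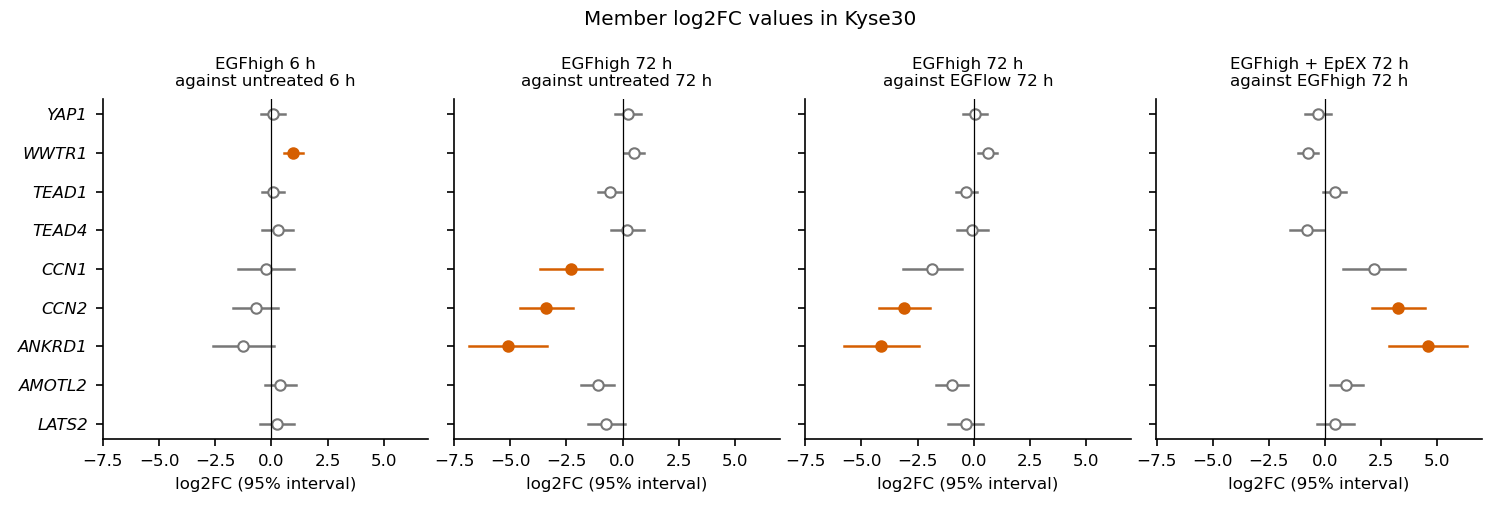
log2FC with its 95% interval for the 9 members in 4 Kyse30 comparisons, filled orange where the member was called and open grey where it was not. WWTR1 was called with EGFhigh at 6 h (0.97), and CCN2 and ANKRD1 in all 3 comparisons at 72 h, below 0 for EGFhigh and above 0 for EGFhigh + EpEX against EGFhigh.

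At 6 h, no target gene passed the test in Kyse30 cells. ANKRD1 held 11.99, 29.7, and 12.6 CPM in untreated cells and 8.84, 7.90, 9.75, and 4.59 CPM with EGFhigh, a log2FC of -1.25 ± 0.69 (adjusted p = 0.404). With EGFhigh + EpEX it held 6.69, 5.13, 6.40, and 2.43 CPM, all below the 9.93, 41.7, and 14.8 CPM with Fc. This was the closest to the threshold, with a log2FC of -2.10 ± 0.70 (adjusted p = 0.0738), and passed with the replicate block (adjusted p = 0.0146) and with the compared groups alone (adjusted p = 0.0486).

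CCN2 was lower at 6 h in most treated libraries. It held 160, 146, and 191 CPM untreated and 103, 18.0, 73.3, and 68.4 CPM with EGFlow, without overlap, at a log2FC of -1.34 ± 0.51 (adjusted p = 0.201). With EGFhigh the libraries overlapped the controls (202, 85.0, 59.7, and 63.0 CPM), and the log2FC was -0.71 ± 0.51 (adjusted p = 0.571). With EGFhigh + EpEX, replicate 1 held 239 CPM and the other 3 held 42.8, 45.8, and 32.3 CPM. Without replicate 1 the log2FC against Fc changed from -1.20 (adjusted p = 0.179) to -2.33 (adjusted p = 0.00433). The same library was also the highest of its group for CCN1, AMOTL2, and LATS2, with 246, 354, and 44.4 CPM. With EpEX alone, CCN2 held 67.6 to 114 CPM, against 135 to 256 CPM with Fc. CCN1 held 177 to 217 CPM with EpEX alone, against 293 to 376 CPM with Fc. The groups overlapped for neither gene, and neither passed the test. Groups did not overlap for 4 of the 9 members there, against 13.2% of all genes.

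EGFhigh and EGFlow differed for 0 of 9 members at 6 h, as did EGFhigh + EpEX and EGFhigh, with 0% of all genes called with edgeR, 0 members with DESeq2, and 0 members at an unadjusted p under 0.05. The difference between the EGFhigh responses at 72 and 6 h was tested as an interaction. Its log2FC was -3.86 ± 1.11 for ANKRD1 (adjusted p = 0.0779) and -2.70 ± 0.78 for CCN2 (adjusted p = 0.0774), so 0 of 9 members were called with edgeR, against 1.01% of all genes, with 4 members at an unadjusted p under 0.05, against 13.7%. DESeq2 called ANKRD1 (adjusted p = 0.0348), and with the compared groups alone in the fit both were called (adjusted p = 0.0125 for ANKRD1 and 0.025 for CCN2).

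Without any agent, the means of all 5 targets were higher at 72 h than at 6 h. CCN2 had a mean of 166 ± 23.1 CPM at 6 h and 447 ± 102 CPM at 72 h (SD, n = 3 each), and its log2FC of 1.43 ± 0.56 did not pass the test (adjusted p = 0.217), nor did that of CCN1 (1.40 ± 0.69, adjusted p = 0.378), ANKRD1 (1.46 ± 0.72, adjusted p = 0.375), or AMOTL2 (1.22 ± 0.38, adjusted p = 0.0874). For CCN2, AMOTL2, and WWTR1, which was lower at 72 h, the groups did not overlap, that is for 3 of 9 members against 20.7% of all genes. Thus 0 of 9 members were called with edgeR and 0 with DESeq2, against 1.55% of all genes with edgeR, and 4 members had an unadjusted p under 0.05, against 13.2%. With only these groups in the fit, CCN2, CCN1, and AMOTL2 passed (adjusted p = 0.000814, 0.0448, and 0.0105), and with the replicate block AMOTL2 did (adjusted p = 0.0282). Fc differed from untreated cells for 0 members at 6 and at 72 h, and untreated cells at 6 h from those at 0 h for 0 members, with 0% of all genes called, 0 members called with DESeq2, and 0 at an unadjusted p under 0.05.

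In the order of all 13 Kyse30 conditions, neighbouring ranges of the target genes overlapped nearly throughout. For CCN1, CCN2, AMOTL2, and LATS2 all 12 neighbours overlapped, and for ANKRD1 11 of 12, the exception being EGFhigh at 72 h, below EGFhigh + EpEX at 6 h. For WWTR1 the gap lay between EGFhigh at 72 h and EGFlow at 6 h. The highest condition mean was 49.9 times the lowest for ANKRD1, 12.3 times for CCN2, 4.93 times for CCN1, 2.37 times for AMOTL2, and 1.82 times for LATS2.

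In FaDu cells, WWTR1 was again the member that rose at 6 h. It held 62.4 and 72.4 CPM in untreated cells, 192 and 191 CPM with EGFlow, and 187 and 230 CPM with EGFhigh. With Fc it held 59.6 and 87.0 CPM, and with EpEX 162 and 201 CPM. The treated libraries lay above all controls by a wide margin. The log2FC was 1.504 ± 0.236 with EGFlow (adjusted p = 0.000905), 1.63 ± 0.24 with EGFhigh (adjusted p = 0.000517), and 1.31 ± 0.23 with EpEX (adjusted p = 0.00288). In each comparison WWTR1 was the only 1 of the 8 members tested to be called, against 3.45%, 3.06%, and 3.5% of all 16022 genes. Without Fc replicate 3 the adjusted p for EpEX was 0.0674 (log2FC 1.06). With all 4 FaDu replicates, no call was made (adjusted p = 1 in each), and the log2FC of WWTR1 was 0.42, 0.22, and 0.93.

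Of the FaDu conditions with 1 library, WWTR1 was highest with EGFhigh and EGFlow at 72 h, at 231 and 154 CPM. The 1 untreated library of 72 h held 74.2 CPM, that of 0 h 75.1 CPM, and the EpEX library of 72 h 92.4 CPM. Single libraries allow no test. The 1 library with EGFhigh + EpEX at 6 h held 88.6 CPM. At 72 h, EGFhigh + EpEX gave 138 and 171 CPM against 62.1 and 102 CPM with Fc, a log2FC of 0.91 ± 0.23 that did not pass (adjusted p = 0.0896, and 0.0195 with DESeq2, 0.0389 with the compared groups alone, and 0.0049 with the replicate block). In this comparison 0 of 8 members were called with edgeR, against 0.818% of all genes, and 2 had an unadjusted p under 0.05, WWTR1 and CCN2, against 6.78%.

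The other FaDu members moved less. At 6 h, YAP1, CCN2, AMOTL2, and LATS2 lay above the control libraries in every library with EGFlow, EGFhigh, or EpEX where each was set against its own control, and none passed the test. For EGFhigh the log2FC was 1.00 ± 0.50 for CCN2 (adjusted p = 0.377, and 0.0238 with the replicate block), 1.04 ± 0.46 for LATS2 (adjusted p = 0.299), and 0.52 ± 0.24 for AMOTL2 (adjusted p = 0.348). Groups did not overlap for 7, 6, and 5 of the 8 members under EGFlow, EGFhigh, and EpEX, against 42.8%, 40.8%, and 39.8% of all genes. CCN1 had replicates far apart, with 43.2 and 272 CPM under EGFhigh. ANKRD1 was at 0 counts in 8 of 20 FaDu libraries and reached 8 counts at most, and was not tested in this line. Between EGFhigh and EGFlow at 6 h and between Fc and untreated cells at 6 h, 0 of 8 members and 0% of all genes were called with edgeR, 0 members with DESeq2, and 0 members had an unadjusted p under 0.05. Between Fc at 72 and 6 h, 0 of 8 were called with edgeR and with DESeq2, against 2.88% of all genes, and CCN2 (log2FC 1.35) and AMOTL2 (log2FC -0.72) had an unadjusted p under 0.05, against 15% of all genes.

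**Figure D4:**
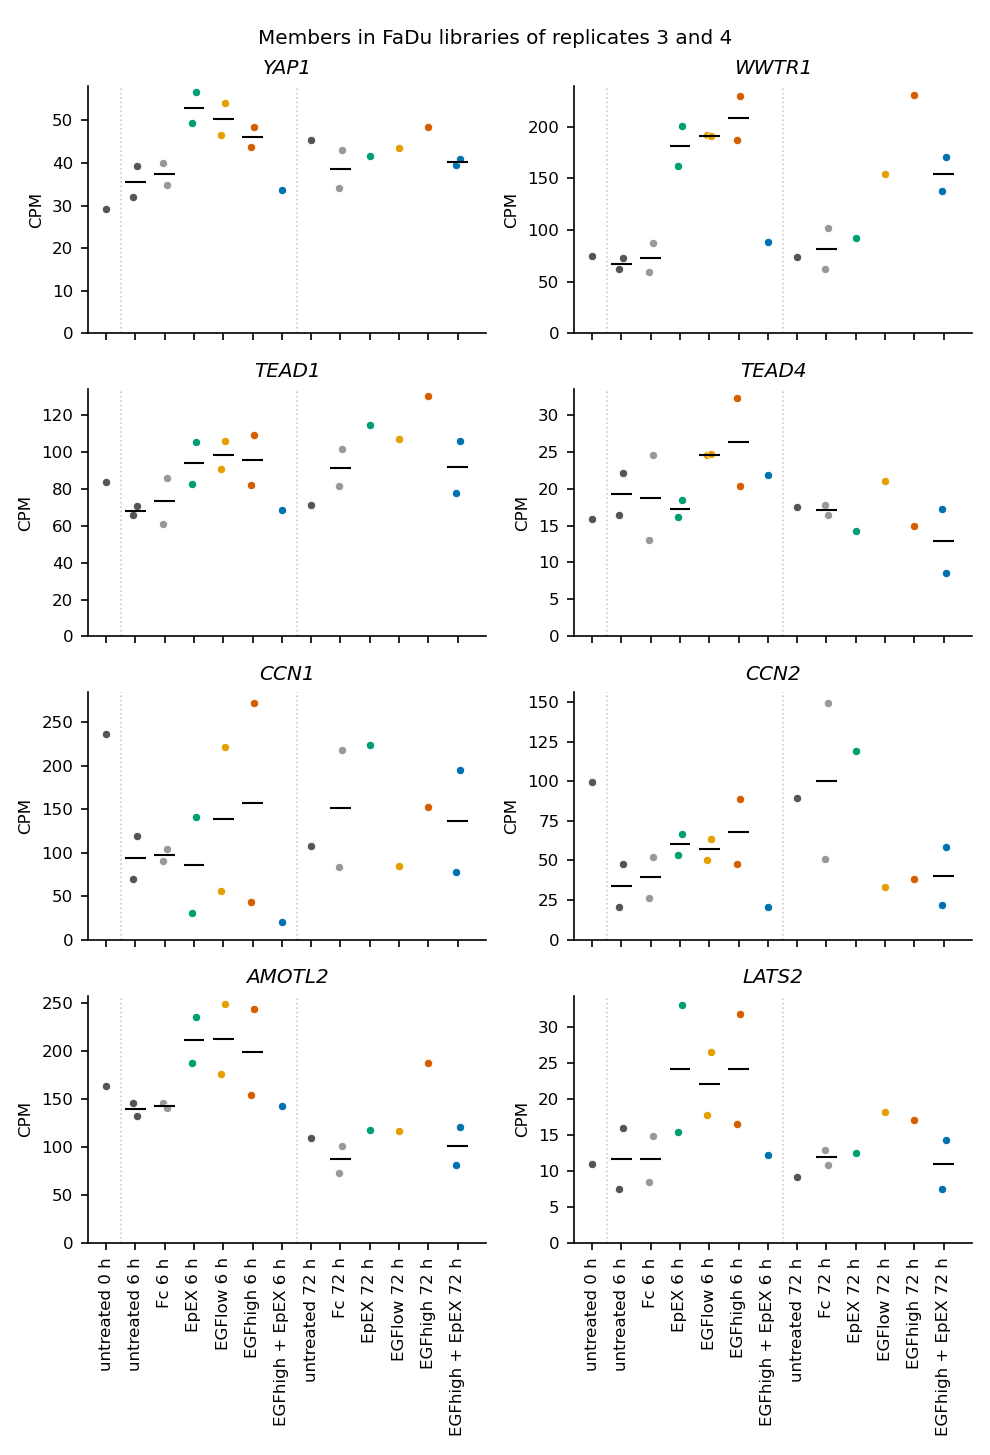
CPM of 8 members in each FaDu library of replicates 3 and 4 (points, colored by treatment) with the mean where a condition has 2 libraries (bars), with dotted lines between 0, 6, and 72 h. WWTR1 lies at 162 to 230 CPM in the 6 libraries with EGF or EpEX alone at 6 h and at 59.6 to 87.0 CPM in the 4 libraries with no agent or Fc.

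The responses of the lines at 6 h were compared as interactions over both lines. The log2FC of WWTR1 was higher in FaDu than in Kyse30 cells by 0.63 ± 0.34 for EGFhigh and by 0.62 ± 0.34 for EGFlow, and that of CCN2 by 1.69 ± 0.84 and 2.06 ± 0.84. None of the 9 members was called with edgeR (adjusted p = 1 for WWTR1 with EGFhigh and 0.97 with EGFlow, and 1 and 0.793 for CCN2) or DESeq2, against 0.0611% and 0.112% of all genes, and 1 and 2 members had an unadjusted p under 0.05, against 4.91% and 5.34%. The lines also belong to different sets of libraries, so line and library set cannot be told apart.

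Untreated FaDu cells held less mRNA of some targets than Kyse30 cells at 6 h. ANKRD1 had 0 and 3 counts in the 2 FaDu libraries, 3 of 16785194 counts in all, and 407 of 21292943 counts in the 3 Kyse30 libraries. The ratio of FaDu to Kyse30 was 0.00935, with an exact 95% interval of 0.00192 to 0.0275 that covers counting error only (adjusted p = 6.23e-05, edgeR). CCN2 held 20.5 and 47.5 CPM in FaDu and 160, 146, and 191 CPM in Kyse30 cells, each scaled within its line, with a log2FC of -2.26 ± 0.66 (adjusted p = 0.00804). LATS2 held 7.42 and 16.0 CPM in FaDu and 51.3, 21.2, and 16.7 CPM in Kyse30 cells (log2FC -1.30 ± 0.49, adjusted p = 0.049). These 3 of 9 members were called, against 22.4% of all genes, and YAP1 (log2FC -0.03, 95% interval -0.62 to 0.56) and TEAD1 (-0.05, -0.61 to 0.51) were not. Without FaDu replicate 3, CCN2 and LATS2 lost the call (adjusted p = 0.18 and 0.437, log2FC -1.78 and -0.86), and LATS2 lost it without Kyse30 replicate 1 (adjusted p = 0.384, log2FC -0.67). With all 4 FaDu replicates, 0 members were called. The log2FC was then -2.72 for ANKRD1 (adjusted p = 0.231), -2.90 for CCN2 (adjusted p = 0.0998), and -1.11 for LATS2 (adjusted p = 0.245). The ratio of 0.00935 for ANKRD1 thus holds for FaDu replicates 3 and 4 only.

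Over the 13 Kyse30 condition means, CCN2 was close to CCN1, ANKRD1, and AMOTL2, and LATS2 stood further off. The Pearson correlation of log2 CPM was 0.93 between CCN1 and CCN2, 0.93 between CCN2 and ANKRD1, 0.86 between CCN2 and AMOTL2, and 0.83 between CCN1 and ANKRD1. It was 0.81 between CCN1 and AMOTL2 and 0.70 between AMOTL2 and ANKRD1. For LATS2 it lay between 0.56 (AMOTL2) and 0.67 (ANKRD1) over the other targets, and TEAD1 correlated by 0.67 with LATS2 and by 0.61 with ANKRD1. WWTR1 correlated by 0.83 with TEAD4 and by -0.81 with CCN2, and YAP1 by -0.32 with WWTR1 and 0.01 with CCN2. These values describe 13 points that share libraries between genes, time points, and treatments, and EGFhigh at 72 h is the lowest point for CCN2 and ANKRD1.

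**Figure D5:**
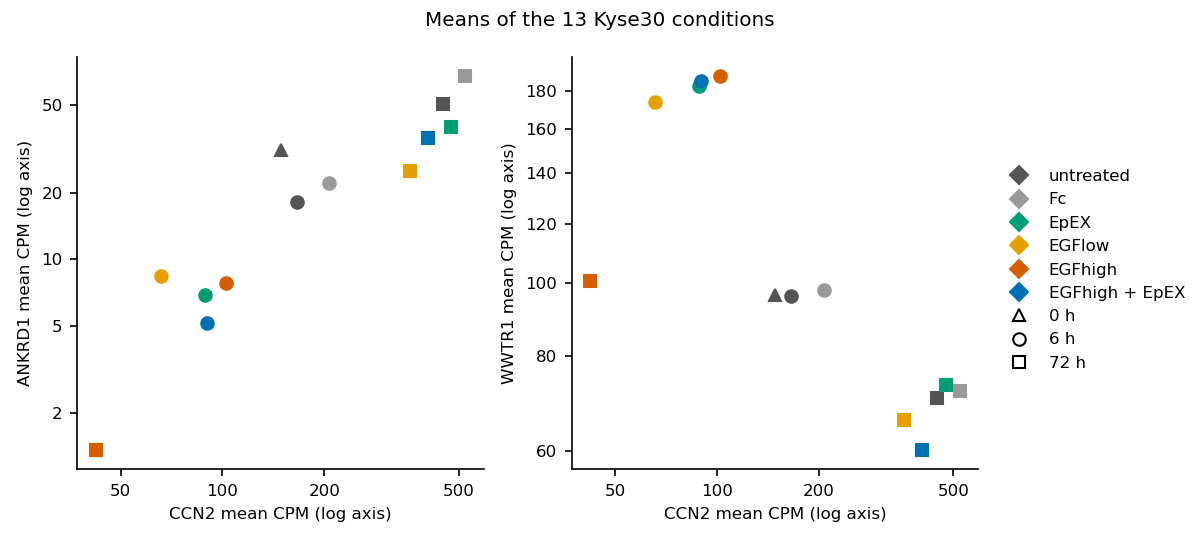
Mean CPM of ANKRD1 (left) and WWTR1 (right) against that of CCN2 in the 13 Kyse30 conditions (log axes, color for the treatment and shape for the time). EGFhigh at 72 h, with 42.2 CPM of CCN2 and 1.36 CPM of ANKRD1, lies at the lower left of the left plot, and the other conditions of 72 h lie at the upper right.

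Among 10239 genes with a mean of at least 5 CPM, the patterns most like that of WWTR1 over these 13 means were those of INPP1 (Pearson r = 0.99) and TAF13 (0.98). INPP1 encodes an inositol polyphosphate phosphatase and TAF13 a subunit of the TFIID complex. Most like CCN2 were ZNF704 (0.99), DSC3 (0.98), which encodes a desmosomal cadherin, and ALDH7A1 (0.98), an aldehyde dehydrogenase. Most like ANKRD1 were CCSAP (0.97), EFNA5 (0.97), an ephrin, and HMGN3 (0.96). Most like AMOTL2 were JDP2 (0.97), an AP-1 family repressor, ATP6V1B1 (0.95), and JUNB (0.95). For CCN1 they were TAB2 (0.95), PREP (0.94), and CREG1 (0.93), for TEAD4 GRK6 (0.96), ATOX1 (0.95), and ALYREF (0.94), and for TEAD1 SVBP (0.90), CNIH1 (0.90), and RPA3 (0.89). YAP1 and LATS2 had the weakest likenesses, LRRC28 (0.89), VPS4B (0.83), and OSBP (0.83) for YAP1 and ZNF623 (0.87), RGMB (0.83), and PGRMC1 (0.81) for LATS2. Of the 27 genes ranked as the 3 most like each member, 7 were again among the 3 most like by Spearman correlation, and 16 without the 0 h condition. For CCN1, 0 of the 3 were kept in either check. TEAD4, AMOTL2, ANKRD1, and LATS2 each kept 0 of 3 by Spearman correlation.

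Other known YAP/TAZ targets moved in both directions with EGFhigh at 72 h in Kyse30 cells. Of 16 tested, 5 fell and 2 rose, with a median log2FC of -0.40 over the list and -0.03 over all genes, of which 3.16% fell and 3.04% rose. RBMS3, an RNA-binding protein, fell from a mean of 14.2 to 2.34 CPM (log2FC -2.63 ± 0.57, adjusted p = 0.0024), and IGFBP3, a binding protein of insulin-like growth factors, from 213 to 36.5 CPM (log2FC -2.55 ± 0.74, adjusted p = 0.0279). NUAK2, a kinase of the AMPK family, rose from 7.19 to 31.6 CPM (log2FC 2.15 ± 0.54, adjusted p = 0.00915), and NT5E, the surface enzyme CD73, from 102 to 339 CPM (log2FC 1.73 ± 0.38, adjusted p = 0.00256). Under EGFhigh + EpEX these 4 moved back against EGFhigh, IGFBP3 and RBMS3 by a log2FC of 2.86 and 2.13 and NUAK2 and NT5E by -2.24 and -1.24, as the only 4 of 16 called, against 3.58% of all genes. At 6 h, F3, the gene of tissue factor, was the only 1 of 16 called in Kyse30 cells with EGFhigh, against 2.55% of all genes (78.6 to 374 CPM, log2FC 2.25 ± 0.54, adjusted p = 0.0144). In FaDu cells F3 rose from 11.03 to 348 CPM with EGFlow and to 350 CPM with EGFhigh (log2FC 4.98 and 4.99), beside GADD45A and ASAP1. Of all genes, 3.45% and 3.06% were called there.

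Of 25 Hippo kinases and upstream regulators tested in Kyse30 cells, 1 fell with EGFhigh at 72 h, PTPN14, a phosphatase that binds YAP (359 to 190 CPM, log2FC -0.91 ± 0.19, adjusted p = 0.00171), and the other 24 were not called. Of all genes, 6.2% were called in this comparison. With EGFhigh + EpEX at 6 h, STRN3, STK4 (the Hippo kinase MST1), and MAP4K4 rose by a log2FC of 0.69, 0.65, and 0.61, and AJUBA, a LIM protein that binds LATS kinases, fell by 1.57 on the log2 scale. These were 4 of 25 called, against 4.52% of all genes. In FaDu cells at 6 h, WWC1 (KIBRA) and WWC2, scaffolds of the LATS kinases, rose by 1.16 and 0.96 with EGFlow and by 1.27 and 0.84 with EGFhigh, as the only 2 of 25 called, against 3.45% and 3.06% of all genes. With EpEX in FaDu cells, 0 of 25 were called with edgeR, against 3.5%, and 4 had an unadjusted p under 0.05, against 13.9% of all genes.

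Genes of the serum response factor and its MRTF co-activators, which respond to actin dynamics as YAP/TAZ do, were called in 1 direction at 6 h with EGF. In Kyse30 cells, 5 of 16 rose with EGFlow, 5 with EGFhigh, and 6 with EGFhigh + EpEX, and 0 fell, against 1.5%, 2.55%, and 4.52% of all genes called in either direction. With EpEX alone, 0 of 16 were called with edgeR, against 0.0261%, and 5 had an unadjusted p under 0.05, against 9.45% of all genes. ZYX, the focal adhesion protein zyxin, went from 51.2 to 176 CPM with EGFlow (log2FC 1.78 ± 0.30, adjusted p = 0.00203). In FaDu cells, 12, 10, and 11 of 15 rose with EGFlow, EGFhigh, and EpEX at 6 h and 0 fell, against 3.45%, 3.06%, and 3.5% of all genes called, with TAGLN (transgelin) from 1.41 to 30.6 CPM under EGFlow (log2FC 4.43). At 72 h with EGFhigh in Kyse30 cells, 6 of 16 rose, among them FHL2 (29.7 to 83.3 CPM), and 1 fell, SRF itself (144 to 62.7 CPM, log2FC -1.20 ± 0.28, adjusted p = 0.00483). Of all genes, 3.04% rose and 3.16% fell. Of 10 feedback genes of EGF signaling, DUSP4 and PHLDA1 rose and DUSP6 fell with EGFhigh at 72 h in Kyse30 cells. That is 3 of 10 called, against 6.2% of all genes. In FaDu cells PHLDA1, DUSP4, and DUSP5 rose at 6 h with EGFlow, EGFhigh, and EpEX, where 3.45%, 3.06%, and 3.5% of all genes were called. The squamous marker KRT17 rose from 12.6 to 58.7 CPM with EGFhigh at 72 h in Kyse30 cells. It was the only 1 of 7 squamous markers tested to be called, against 6.2% of all genes. In FaDu cells KRT17 rose from 749 to 3324 CPM with EGFlow at 6 h, beside CDH1 (40.7 to 93.3 CPM). The list holds 8 squamous markers, and 3.45% of all genes were called in this comparison. With EGFhigh + EpEX at 72 h against Fc in FaDu cells, KRT17 fell from 914 to 441 CPM and KRT5 from 496 to 113 CPM. Of all genes, 0.818% were called there. The part of these markers in the results was not tested.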

How the data were processed

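The authors deposited gene counts (whole reads per gene, not normalized) for 84 libraries of QuantSeq 3′ FWD RNA-seq. The submitters' processing notes name STAR, HTSeq, and GRCh38/hg38, and versions, annotation release, and strand setting are not given in the sources used here. Rows that name no gene (6.23% to 16.1% of reads in Kyse30 without a feature or ambiguous, and 24.6% to 43.6% not unique) were left out of library sizes. Symbols were matched for 58275 of 58395 genes.

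Counts were tested in R 4.3.3 with edgeR 4.0.16 (quasi-likelihood test, TMM scaling, filterByExpr with a minimum count of 10 and a minimum total of 15), in 1 fit for 43 Kyse30 libraries, 1 for 20 FaDu libraries, and 1 for both. p-values were adjusted by Benjamini-Hochberg over all genes tested. Calls required an adjusted p no higher than 0.05 and a log2FC beyond 0.5 in size. Untreated cells were the control for EGF, and Fc was the control for EpEX and EGFhigh + EpEX. Alternatives were DESeq2 1.42.0, RLE size factors in edgeR, CPM without TMM, no filter, a mean of at least 5 CPM, the compared groups alone, the replicate number as a block, all 4 FaDu replicates, untreated cells in place of Fc, and each library left out. Scripts were tested on simulated data.

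The 9 members were named in every comparison. Of each other list, up to 4 called genes with the largest absolute log2FC and a mean of at least 5 CPM were eligible, and for each member the 3 genes most like it by Pearson correlation of condition means. Of the genes most like a member, 1 is not reported here. Members and lists were chosen with earlier results of these data known. A count of 3 corresponded to 0.255 to 1.54 CPM in Kyse30 and 0.241 to 0.482 CPM in FaDu libraries. Intervals of a log2FC were built from its SE in the edgeR fit with a normal quantile, and include the spread between libraries. Only the exact interval of the ANKRD1 ratio between the lines covers counting error alone.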

Additional observations from a re-analysis of the deposited data

How the results depend on the processing

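Of 3064 values recomputed for 236 results, 2771 kept their direction and side of the threshold, 60 newly passed, and 25 no longer passed. The remaining 208 changed the sign of the log2FC, with no call in either fit. A change of sign together with a call in either fit occurred for 0 values. Without the filter on low counts, the number of members called went from 1 to 3 for EGFlow at 6 h, 2 for EGFhigh at 6 h, and 4 for EGFhigh + EpEX at 6 h, from 0 to 2 for EpEX at 6 h, from 2 to 4 for EGFhigh against EGFlow and for EGFhigh + EpEX against EGFhigh at 72 h, from 0 to 4 for untreated cells at 72 against 6 h and for the interaction with time, from 1 to 2 and 3 for EGFlow and EGFhigh in FaDu, from 0 to 2 for FaDu EGFhigh + EpEX at 72 h and Fc over time, and from 0 to 1 and 2 for the line interactions with EGFhigh and EGFlow. DESeq2 called 1 member in place of 0 for EpEX at 6 h, FaDu EGFhigh + EpEX at 72 h, and the interaction with time. Smaller shifts were from 2 to 3 for EGFhigh + EpEX against EGFhigh at 72 h with DESeq2, a mean of at least 5 CPM, and the replicate block, and from 3 to 4 without the filter and 3 to 2 with the compared groups alone for EGFhigh at 72 h, and from 3 to 4 under both settings between the lines. With the compared groups alone, 3 were called for untreated cells over time, 2 for the interaction with time, and 1 for FaDu EGFhigh + EpEX at 72 h. With all 4 FaDu replicates, 0 were called for EGFlow, EGFhigh, and EpEX at 6 h and between the lines. The cause was not tested.

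After removal of the condition means, same-numbered libraries correlated by a mean of 0.0633 in Kyse30 and 0.0713 in FaDu. For libraries with other numbers the mean was -0.0216 in Kyse30 and -0.0713 in FaDu. With 2 FaDu libraries per condition, removal of the means fixes the second FaDu value as the negative of the first. It therefore adds no information, and the Kyse30 values are tied to each other in part. Of the libraries, 38 of 43 and 14 of 14 correlated best with their own number, so part of the spread went with the replicate number. The main fits did not include the number, and this pairing is therefore left out of their p-values. With the replicate block, members called went from 0 to 1 for EpEX at 6 h and untreated cells over time, from 1 to 2 for EGFhigh + EpEX at 6 h and FaDu EGFhigh at 6 h, from 2 to 4 for EGFhigh against EGFlow at 72 h, and from 0 to 2 for FaDu EGFhigh + EpEX at 72 h and Fc over time.

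Without 1 library each, members called ranged from 0 to 1 for EGFlow, EGFhigh, and FaDu EpEX at 6 h, 0 to 2 for EGFhigh + EpEX at 6 h, 2 to 3 for EGFhigh at 72 h against untreated cells and EGFlow, and 1 to 3 between the lines.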
